A study of Mus musculus with 4 samples.

Results

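The 6 genes of inhibitory checkpoint receptors, Pdcd1, Lag3, Havcr2, Tigit, Ctla4 and Cd160, were followed in T cells sorted by the surface protein CD3 from subcutaneous mouse tumors, and all 6 were found by symbol among the 32285 genes of the count tables. The tumors grew in wild-type C57BL/6J mice from the Tsc2-deficient 105K line, and the line carried either a non-targeting short hairpin RNA (sh-NC) or 1 hairpin against Cd276 (sh-B7-H3 (1)), the gene of the checkpoint protein B7-H3. The T cells themselves carried no hairpin, and the lack of Tsc2 was common to both groups. Per the deposited design text, 80 tumors of each group were pooled before the sort and the cells were loaded in duplicate lanes, so each group had 2 libraries (n = 2), taken here as lanes of 1 pool, although the study elsewhere calls them independent samples. Tests over these libraries therefore measure the spread between lanes, not between mice, and any difference in handling of the pools cannot be told apart from the hairpin. RNA and antibody tags of the same cells were counted as unique molecular identifiers (UMIs), 1 per captured molecule.

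Inhibitory receptors restrain T cells that have met antigen. Pdcd1 encodes PD-1, which binds PD-L1 and PD-L2 and recruits phosphatases to the antigen receptor. Lag3 encodes LAG-3, a CD4-related receptor that binds MHC class II. Havcr2 encodes TIM-3, with galectin-9 among its ligands. Tigit encodes TIGIT, which competes with the costimulatory receptor CD226 for the ligand CD155. Ctla4 encodes CTLA-4, which competes with CD28 for CD80 and CD86 and is held at high level by regulatory T cells. Cd160 encodes CD160, a ligand of HVEM found on CD8 T cells and natural killer cells. T cells in tumors often carry several of these receptors together, after recent activation as well as in exhaustion.

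Receptor RNA was examined in 3 classes of cells, set by UMIs of lineage genes. CD4 cells had at least 1 Cd4 UMI with no UMI of Cd8a, Cd8b1 or Foxp3, and numbered 1673 and 1373 in the sh-NC libraries and 686 and 892 in the sh-B7-H3 (1) libraries. CD8 cells had at least 3 UMIs of Cd8a and Cd8b1 together with no Cd4, and numbered 3033, 2689, 1300 and 1761 in the same order. Foxp3 cells had at least 1 UMI of Foxp3, the regulatory T cell factor, and numbered 516, 433, 340 and 379. Of the Foxp3 cells, 31 to 46 per library also met the rule for CD8 cells. Among Foxp3 cells with at least 1000 UMIs, 371 of 513 and 337 of 432 in sh-NC held no Cd8a or Cd8b1 UMI. In sh-B7-H3 (1) these were 193 of 331 and 215 of 372, so the class was mixed to a different degree in each group. The classes held 4624, 8783 and 1668 of the 20985 kept cells and of 38860 called cells. Libraries of sh-B7-H3 (1) were shallower. The median of a kept cell was 7988 and 8461 UMIs in sh-NC and 6593 and 6784 in sh-B7-H3 (1). Levels are given in CPM, a gene's UMIs scaled to all UMIs summed over a class, and shares of cells at a common 1000 UMIs per cell. Libraries shared 17 to 35 called barcodes pairwise. Cd276 had 9 to 11 UMIs in all called cells of a library, which is too few to check the hairpin, whose site of action is the tumor cell that the sort removes.

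Pdcd1 (ENSMUSG00000026285) lies on mm10 chromosome 1, 94038305 to 94052553, and Ctla4 (ENSMUSG00000026011) on the same chromosome, 60887000 to 60915832. Lag3 (ENSMUSG00000030124) lies on chromosome 6, 124904361 to 124911705, and Havcr2 (ENSMUSG00000020399) on chromosome 11, 46454935 to 46481255. Tigit (ENSMUSG00000071552) lies on chromosome 16, 43648867 to 43664146, and Cd160 (ENSMUSG00000038304) on chromosome 3, 96798763 to 96829351. The promoters of Pdcd1, Havcr2 and Tigit are shown because these genes moved together with Lag3. Each is the 250 bases before the gene's start in RefSeq (build mm10, GRCm38.p6), written 5′ to 3′ on the gene's strand. Capitals mark matches, on either strand, to the core letters of AP-1 (TGANTCA), NFAT (GGAAAA), RUNX (TGTGGT) or T-box factors (GGTGTGA), or to TATAAA. Pdcd1 (chr1:94052554-94052803, minus strand), Havcr2 (chr11:46454681-46454930, plus strand) and Tigit (chr16:43664185-43664434, minus strand) read:
Pdcd1: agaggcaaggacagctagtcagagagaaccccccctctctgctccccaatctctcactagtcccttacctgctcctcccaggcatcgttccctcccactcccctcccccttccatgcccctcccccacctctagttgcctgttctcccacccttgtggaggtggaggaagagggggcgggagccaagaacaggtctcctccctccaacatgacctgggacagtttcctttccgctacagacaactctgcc
Havcr2: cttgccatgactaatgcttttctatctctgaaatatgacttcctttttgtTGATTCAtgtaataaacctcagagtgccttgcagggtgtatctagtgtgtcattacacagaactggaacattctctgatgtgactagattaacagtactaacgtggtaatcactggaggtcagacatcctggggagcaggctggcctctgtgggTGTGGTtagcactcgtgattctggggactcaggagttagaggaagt
Tigit: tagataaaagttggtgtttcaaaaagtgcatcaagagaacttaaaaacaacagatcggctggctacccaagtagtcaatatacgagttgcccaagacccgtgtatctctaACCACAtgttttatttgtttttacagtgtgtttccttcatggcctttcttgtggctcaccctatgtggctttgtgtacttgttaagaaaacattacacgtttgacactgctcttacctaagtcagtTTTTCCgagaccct
The Pdcd1 window held none of these letters. The Havcr2 window held an AP-1 match starting 200 bases before the start and a RUNX match 46 bases before it. The Tigit window held an NFAT match on the reverse strand 14 bases before the start and a RUNX match on the reverse strand 140 bases before it. Such short matches are common. Of 32851 promoter windows of this length, 6.75% held the AP-1 letters, 20.4% the NFAT letters, 14.05% the RUNX letters, 3.33% the T-box letters and 12.4% TATAAA. The Ctla4 window (chr1:60908775-60909024) lies inside the gene interval given above, ahead of a RefSeq start, and held 1 NFAT match, and the 2 Cd160 windows each held a RUNX match, the second (chr3:96814522-96814771) also a T-box match 189 bases before the start. No motif was common to all 3 printed promoters, and a match is no evidence of binding.

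In CD4 cells Pdcd1, Lag3, Havcr2 and Tigit rose in tumors with sh-B7-H3 (1), by 4.49- to 6.50-fold. Each was counted in both libraries of a group and the groups did not overlap. Pdcd1 stood at 45.4 and 55.0 CPM in sh-NC and at 244.5 and 237.3 CPM in sh-B7-H3 (1), a log2 fold change of 2.17 ± 0.06 (SE, adjusted p = 2.76e-17). Lag3 stood at 54.9 and 64.9 CPM against 395.8 and 351.3 CPM, with a log2 fold change of 2.54 ± 0.06 (adjusted p = 7.4e-19). Both libraries of sh-B7-H3 (1) thus held several times the receptor RNA of either sh-NC library.

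Havcr2 and Tigit were counted less often but moved alike. Havcr2 stood at 11.6 and 14.01 CPM against 75.4 and 67.9 CPM in CD4 cells (log2 fold change 2.38 ± 0.10, adjusted p = 1.07e-14). Tigit stood at 2.72 and 3.31 CPM, from 36 and 38 UMIs, against 22.6 and 19.6 CPM, from 108 and 123 UMIs (2.70 ± 0.19, adjusted p = 5.49e-11). These 4 of 6 receptors compare with 915 of 11058 genes called higher in CD4 cells (8.27%), or 11.2% in either direction. Calls rest on edgeR's quasi-likelihood test and ask for a p under 0.05 after Benjamini-Hochberg adjustment over all genes together with a log2 fold change of at least 1 in size. More cells with a receptor and more RNA per cell cannot be told apart in such sums, and the cells themselves are described further on.

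Ctla4 and Cd160 stayed under the fold limit in CD4 cells. Ctla4 stood at 14.7 and 16.6 CPM against 29.9 and 31.4 CPM, with a log2 fold change of 0.88 ± 0.11 (adjusted p = 1.26e-06). Cd160 stood at 7.18 and 6.70 CPM against 11.1 and 10.8 CPM (0.55 ± 0.18, adjusted p = 0.0171). For both genes the groups did not overlap, and the differences passed the adjusted p alone, as 41.2% of genes did.

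In CD8 cells the same 4 receptors rose, and Ctla4 with them. Pdcd1 stood at 31.2 and 38.9 CPM in sh-NC and 175.4 and 169.3 CPM in sh-B7-H3 (1), a log2 fold change of 2.21 ± 0.06 (adjusted p = 1.75e-21). Lag3 stood at 22.5 and 27.0 CPM against 164.9 and 144.2 CPM (2.54 ± 0.06, adjusted p = 5.59e-22). Havcr2 stood at 5.39 and 6.07 CPM against 42.9 and 42.2 CPM (2.80 ± 0.08, adjusted p = 5.42e-20). It had the largest change of the 6 in this class.

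Tigit in CD8 cells stood at 1.51 and 2.05 CPM against 10.97 and 11.9 CPM, a log2 fold change of 2.60 ± 0.17 (adjusted p = 5.74e-13). Ctla4 stood at 4.74 and 6.50 CPM against 21.3 and 21.5 CPM (1.84 ± 0.12, adjusted p = 6.55e-13). These 5 of 6 receptors compare with 961 of 11867 genes called higher in CD8 cells (8.1%), or 10.4% in either direction. Cd160 was the exception, with 39.9 and 41.3 CPM in sh-NC and 49.98 and 56.3 CPM in sh-B7-H3 (1). Its log2 fold change of 0.31 ± 0.06 (adjusted p = 8.91e-05) was under the fold limit, though the groups did not overlap, and 47.5% of genes passed the adjusted p alone.

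**Figure D1:**
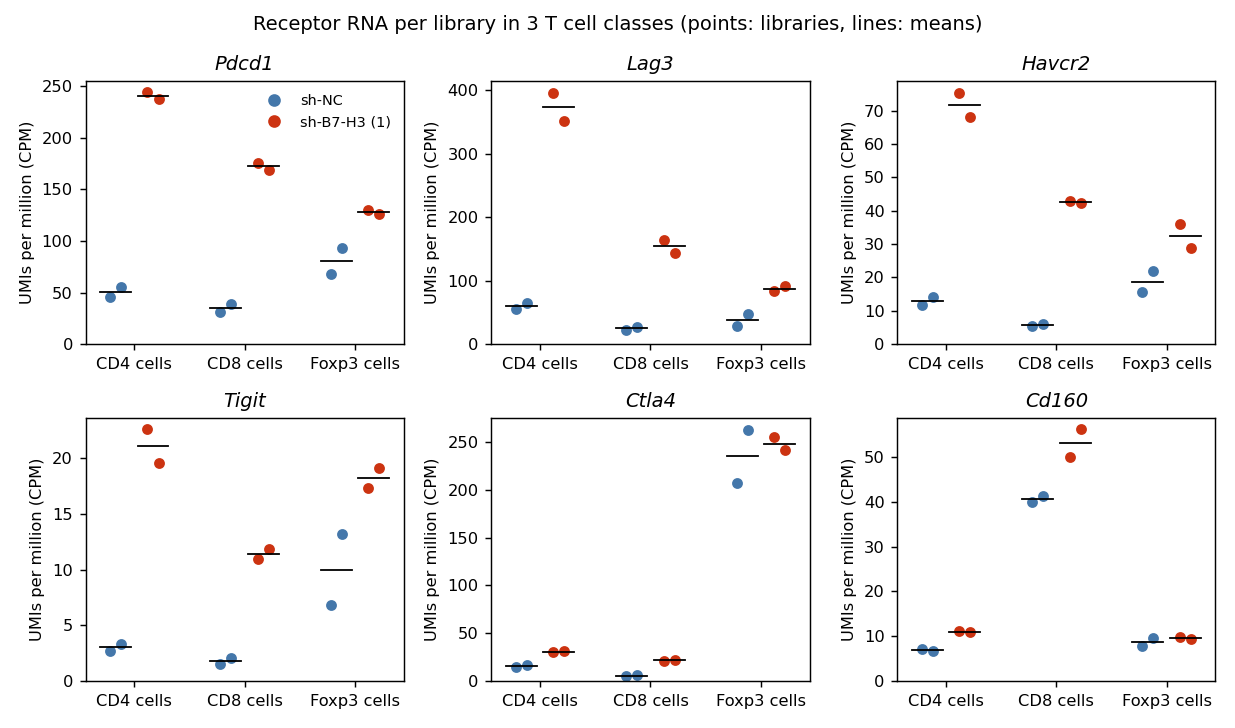
Level of each receptor's RNA in CPM of the class sum (vertical axis, from 0) in CD4, CD8 and Foxp3 cells. Points are libraries and lines are group means, with sh-NC in blue and sh-B7-H3 (1) in red. Pdcd1 in CD4 cells lay at 45.4 and 55.0 in sh-NC and above 237 in both sh-B7-H3 (1) libraries, whereas Ctla4 in Foxp3 cells overlapped between the groups.

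In Foxp3 cells 1 receptor, Lag3, was called. It stood at 28.4 and 47.1 CPM in sh-NC and at 83.7 and 91.1 CPM in sh-B7-H3 (1), a log2 fold change of 1.22 ± 0.16 (adjusted p = 0.000449). Of 9600 genes tested in this class 106 were called higher (1.1%), or 1.31% in either direction. The call did not hold without sh-NC replicate 1 (0.89, adjusted p = 0.0014, under the fold limit) or in cells with at least 2 Foxp3 UMIs (0.28, adjusted p = 0.49). Without sh-NC replicate 2, Lag3, Havcr2 and Tigit were called (1.58, 1.00 and 1.38).

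The other receptors of Foxp3 cells stayed below the fold limit. Pdcd1 stood at 68.1 and 93.6 CPM against 129.9 and 126.3 CPM (log2 fold change 0.66 ± 0.12, adjusted p = 0.00291). Havcr2 stood at 15.7 and 21.9 CPM against 36.0 and 28.9 CPM (0.78 ± 0.19, adjusted p = 0.0244). The groups stood apart for these genes, and 7.11% of genes passed the adjusted p alone. Tigit, at 6.78 and 13.2 CPM against 17.4 and 19.2 CPM (0.89 ± 0.28, adjusted p = 0.0768), did not pass the adjusted p. Ctla4, the receptor that regulatory T cells hold at high level, stood at 207.7 and 262.9 CPM against 255.4 and 241.7 CPM (0.07 ± 0.09, adjusted p = 0.734), and Cd160 at 7.83 and 9.54 CPM against 9.79 and 9.39 CPM (0.14 ± 0.28, adjusted p = 0.845). The groups overlapped for both.

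The difference between classes was tested in 1 fit of all sums, where a difference was called at an adjusted p under 0.05. The fit took the sums as separate units with no term for the library, although the classes come from the same libraries. Its p-values do not account for that pairing. Compared with CD4 cells, the log2 change in Foxp3 cells was lower by 1.48 ± 0.15 for Pdcd1 (difference -1.48, adjusted p = 1.75e-07), and the differences were -1.29 for Lag3, -1.57 for Havcr2, -1.79 for Tigit and -0.79 for Ctla4. The largest adjusted p of these 5 was 0.00175, and 7.96% of 11803 genes differed. The call for Ctla4 was lost without sh-B7-H3 (1) replicate 2 (-0.71, adjusted p = 0.0944). The difference for Cd160 was -0.39 and was not called. Between CD8 and CD4 cells only Ctla4 of the 6 differed, by 0.96 ± 0.19 (adjusted p = 0.0033), where 3.24% of genes differed, and this call was lost without either sh-B7-H3 (1) library (adjusted p = 0.0645 and 0.0696).

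**Figure D2:**
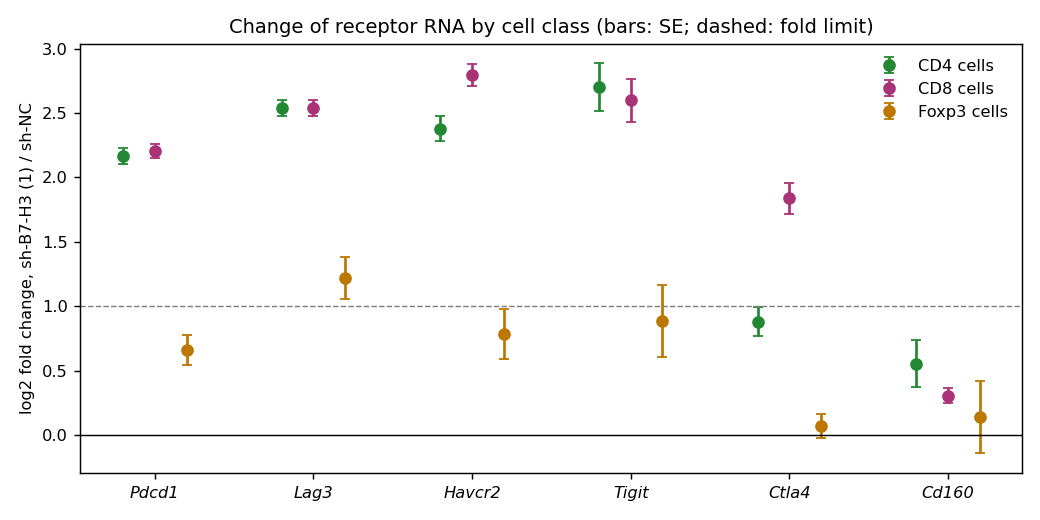
Log2 fold change of each receptor, sh-B7-H3 (1) over sh-NC (vertical axis), in CD4 (green), CD8 (purple) and Foxp3 cells (orange), with bars for the standard error and a dashed line at the fold limit of 1. Pdcd1, Lag3, Havcr2 and Tigit lay between 2.17 and 2.80 in CD4 and CD8 cells and between 0.66 and 1.22 in Foxp3 cells.

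Levels were ordered over the 6 combinations of class and group. Pdcd1 and Havcr2 had the same order, highest in CD4 cells of sh-B7-H3 (1), then in CD8 and Foxp3 cells of that group, then in Foxp3, CD4 and CD8 cells of sh-NC, and no neighbors in this order overlapped. Lag3 differed in that CD4 cells of sh-NC (59.9 ± 7.09 CPM, SD) stood above Foxp3 cells of sh-NC (37.8 ± 13.2 CPM). For Tigit, CD8 cells of sh-B7-H3 (1) and Foxp3 cells of sh-NC overlapped (11.4 ± 0.657 and 10.0 ± 4.56 CPM). Ctla4 was highest in Foxp3 cells, where both groups overlapped, at 235.3 ± 39.0 and 248.6 ± 9.69 CPM. Cd160 was highest in CD8 cells, 40.6 ± 0.989 and 53.1 ± 4.46 CPM, and at most 11.1 CPM in any CD4 or Foxp3 library. With 2 libraries a group, the absence of overlap is a weak statement.

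Over the 12 sums of 4 libraries and 3 classes, Pdcd1 varied most closely with Havcr2 among the members (Pearson r = 0.99), and also with Lag3 (0.91) and Tigit (0.93). Ctla4 and Cd160 had r = 0.38 and -0.02 to Pdcd1. Ctla4 was closest to Tigit (0.66), and Cd160 had r of -0.56 to -0.02 to the other members. Of the 4618 genes that averaged 20 CPM or more, the genes most like Lag3 were Tox, Trps1 and Nr4a2 (r = 0.99, 0.98 and 0.97). Those most like Pdcd1 were 1700017B05Rik, Ier5l and Havcr2, and those most like Havcr2 were Ier5l, 1700017B05Rik and Pdcd1 (all 0.99). Tigit was most like Cers4, Grina and Calm3 (0.99, 0.99 and 0.98), Ctla4 most like Hacd3, Ubl3 and Capg (0.99), and Cd160 most like Jaml, Sugt1 and Slc25a4 (0.94, 0.91 and 0.91). The sums share libraries and depth and differ by class and group, so these values only describe the order of the levels.

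The receptors were then counted in single cells, each thinned to 1000 UMIs. In CD4 cells Pdcd1 was detected in 3.95% and 4.81% of cells in sh-NC and in 22.9% and 18.8% in sh-B7-H3 (1). Lag3 was detected in 3.77% and 5.10% against 25.0% and 22.1%. Havcr2 was detected in 1.26% and 1.60% against 6.94% and 5.38%. These shares come from 1 draw of the thinning. Averaged over 20 further draws on the same cells, Pdcd1 was detected in 3.97% and 5.13% against 19.2% and 19.0%. Lag3 then gave 4.00% and 5.11% against 25.1% and 24.0%, and Havcr2 1.22% and 1.56% against 6.77% and 5.85%. The mean number of Pdcd1 UMIs in a Pdcd1-positive CD4 cell was 1.42 and 1.23 in sh-NC and 1.35 and 1.38 in sh-B7-H3 (1), and these overlapped. For Lag3 it was 1.73 and 1.44 against 1.57 and 1.56. More CD4 cells with the receptor, at a similar count per positive cell, were thus seen at this depth, where most positive cells hold 1 UMI.

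Joint detection followed the same course. At least 2 of the 6 receptors were detected in 45 of 1670 (2.69%, exact 95% interval 1.97 to 3.59) and 45 of 1373 CD4 cells (3.28%, 2.40 to 4.36) of sh-NC, and in 113 of 677 (16.7%, 13.96 to 19.7) and 107 of 874 (12.2%, 10.1 to 14.6) of sh-B7-H3 (1). In CD8 cells the shares were 1.62% (1.20 to 2.13) and 2.76% (2.17 to 3.45) against 8.50% (7.04 to 10.2) and 8.53% (7.27 to 9.94). Both classes stood apart between the groups, with a difference of 11.5 and 6.33 percentage points. The two-sided exact permutation test over the 4 libraries gave p = 0.333, the smallest this design allows. In Foxp3 cells the shares were 5.07% (3.34 to 7.34) and 6.71% (4.54 to 9.499) against 8.46% (5.69 to 11.99) and 7.80% (5.28 to 11.004). The Foxp3 groups did not hold apart. Over 20 draws of the thinning on the same cells, chosen after these values were seen, they overlapped in 12 draws in Foxp3 cells and in 0 draws in CD4 and CD8 cells, and the mean difference was 1.59 percentage points in Foxp3 cells, 11.5 in CD4 and 6.91 in CD8 cells. They also overlapped without doublet removal, at 2 or more Foxp3 UMIs, without Cd8 UMIs and without marker cells, where the difference was 1.29, 2.00, 0.57 and 1.98 points. The 12.2% printed for CD4 cells of sh-B7-H3 (1) replicate 2 lay below the lowest of the 20 draws (12.7%). The 2.76% printed for CD8 cells of sh-NC replicate 2 lay above the highest (2.72%). At least 3 receptors were detected in at most 2.95% of cells of any class and library. The intervals cover counting error only.

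Without thinning, at least 2 receptors were seen in a mean of 10.0% of CD4 cells in sh-NC and 49.6% in sh-B7-H3 (1), and in 10.97% and 47.1% of CD8 cells. The size of these shares thus depends on depth. Cells with at least 10 UMIs over Lyz2, Apoe, C1qa, C1qb and C1qc and none of Cd3d, Cd3e or Cd3g, macrophage marker cells, served as the background. That macrophages in these tumors lack Pdcd1 and Lag3 was assumed and not tested. Those that reached 1000 UMIs numbered 15 and 18 in sh-NC and 74 and 50 in sh-B7-H3 (1). Pdcd1 was detected in 0 of them in each library, which allows a share of up to 20.0%, 16.7%, 4.05% and 6.00%. Lag3 was detected in 1 of the 50 cells of sh-B7-H3 (1) replicate 2 (2.00%) and in 0 of the others, and 0 held 2 receptors. With the shallower cells counted in, their median depths of 1613 to 2447.5 UMIs were below the 6769.5 to 8075 UMIs of CD4 cells, and the few cells bound the background only loosely.

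**Figure D3:**
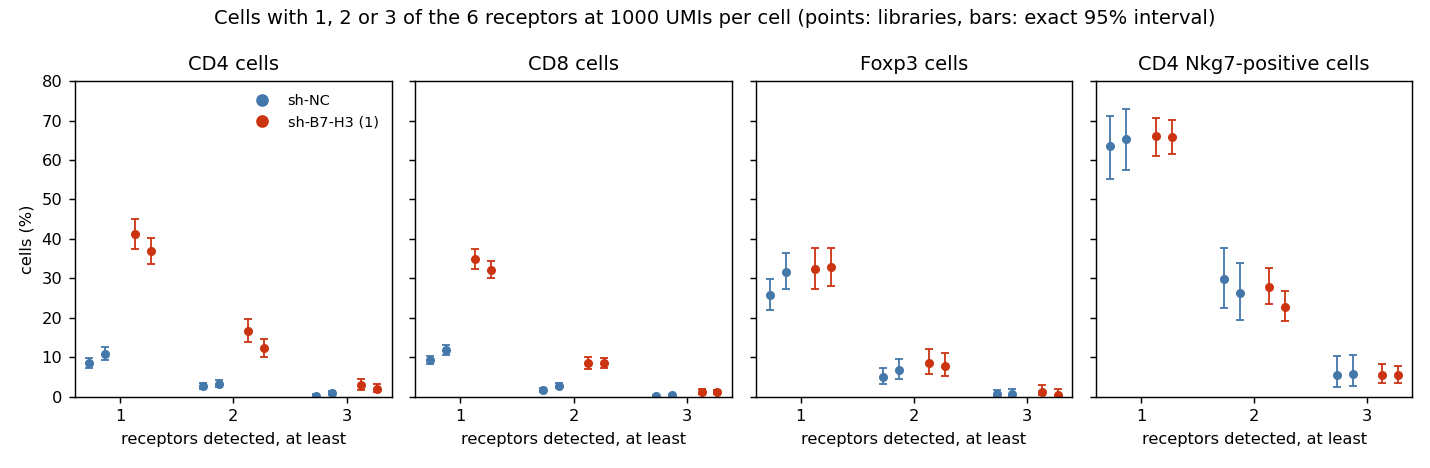
Share of cells in percent (vertical axis) with at least 1, 2 or 3 of the 6 receptors detected at 1000 UMIs per cell, in CD4, CD8 and Foxp3 cells and in CD4 cells with at least 2 Nkg7 UMIs. Points are libraries, sh-NC in blue and sh-B7-H3 (1) in red, and bars are exact 95% intervals. The plotted draw of the thinning shows at least 2 receptors apart between the groups in CD4 and CD8 cells, as in all 20 draws, and in Foxp3 cells, where 12 of 20 draws overlapped. In CD4 cells with Nkg7 the groups overlapped for at least 2 and at least 3 receptors, and at least 1 receptor was held by 64.4% of cells in sh-NC and 66.0% in sh-B7-H3 (1), which did not overlap.

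Pdcd1 and Lag3 were found in the same CD4 and CD8 cells more often than separate detection would give. For Pdcd1 and Lag3 in CD4 cells of sh-NC, 25 and 22 cells held both, 10.0 and 6.54 times the number from the product of the shares. In sh-B7-H3 (1), 74 and 67 cells held both, 1.91 and 1.85 times that number. In CD8 cells the ratios were 8.72 and 8.84 in sh-NC and 1.76 and 1.71 in sh-B7-H3 (1). Over the 20 draws the CD8 ratios ranged from 7.28 to 13.3 and 4.88 to 9.54 in sh-NC and from 1.48 to 2.08 and 1.67 to 2.11 in sh-B7-H3 (1). The ratio lay lower where the receptors were more common. It cannot exceed 1 divided by the larger of the 2 shares. With Lag3 in 25.0% and 22.1% of CD4 cells of sh-B7-H3 (1), the ratios of 10.0 and 6.54 were out of reach there. The groups overlapped in 0 of 20 draws in either class, which for this reason does not show a change in co-expression. CD8 cells with no Foxp3 UMI, in which the UMIs were also drawn anew, gave 5.94 and 5.59 in sh-NC and 1.78 and 1.71 in sh-B7-H3 (1), a difference of -4.02. Of Pdcd1-positive CD4 cells, 37.9% and 33.3% held Lag3 in sh-NC and 47.7% and 40.9% in sh-B7-H3 (1), so this conditional share was less far apart. Among Pdcd1-negative CD4 cells it was 2.37% and 3.67% against 18.2% and 17.7%. In Foxp3 cells only 1 to 4 cells per library held both, with ratios of 2.35 and 0.90 against 1.95 and 1.69, which overlapped. Of the 15 pairs, 6 in CD4, 7 in CD8 and 5 in Foxp3 cells had a ratio over 1 in all 4 libraries. Most pairs had few double-positive cells, and 4, 4 and 2 pairs had at least 5 in every library. Of these, Pdcd1 with Havcr2 in CD4 cells had ratios of 10.8 and 12.3 in sh-NC and 0.93 and 2.04 in sh-B7-H3 (1), under the same kind of upper limit. They rest on 9 and 13 cells in sh-NC and on 10 and 18 in sh-B7-H3 (1). These ratios and the conditional shares come from the 1 main draw of the thinning.

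Most receptor RNA of CD4 cells sat in cells with Nkg7, a gene of cytotoxic granules, counted as positive at 2 or more UMIs. These were 8.85% and 11.4% of CD4 cells in sh-NC and 57.4% and 56.3% in sh-B7-H3 (1). In sh-NC they held 96.1% and 95.6% of the Lag3 UMIs, 97.4% and 96.3% of the Havcr2 UMIs and 85.7% and 83.2% of the Pdcd1 UMIs. Ctla4 was spread more widely, with 29.9% and 30.9% of its UMIs in these cells in sh-NC and 67.8% and 74.6% in sh-B7-H3 (1).

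Within the Nkg7-positive CD4 cells Lag3 stood at 707.7 and 630.2 CPM in sh-NC and 687.4 and 625.5 CPM in sh-B7-H3 (1), a log2 fold change of 0.05 ± 0.07 (adjusted p = 0.812). Pdcd1 stood at 522.2 and 464.9 CPM against 416.1 and 417.8 CPM (-0.16 ± 0.07, adjusted p = 0.268). Havcr2 stood at 152.1 and 137.0 CPM against 130.9 and 120.2 CPM (-0.13 ± 0.10, adjusted p = 0.629). None of these 3 was called here, which does not show equality, and the difference from the change in the whole class was not tested. Nkg7, which set these cells apart, itself rose by 2.80 on the log2 scale in CD4 cells, so the rule takes in a different share of each group. Tigit (0.23 ± 0.19, adjusted p = 0.635) and Ctla4 (-0.42 ± 0.17, adjusted p = 0.2) were not called either. Cd160 fell, from 45.6 and 35.4 CPM to 17.6 and 17.2 CPM (-1.13 ± 0.22, adjusted p = 0.00397), from 40 to 60 UMIs per library, against 1.06% of genes called. That call was lost without sh-NC replicate 1 (-0.97), at 1 or more Nkg7 UMIs (-0.69) and with Cxcr6 in place of Nkg7 (-0.77), all under the fold limit.

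In CD4 cells without Nkg7, receptor RNA was scarce. Pdcd1 stood at 7.13 and 9.77 CPM against 12.9 and 14.5 CPM (0.83 ± 0.27, adjusted p = 0.0539). Lag3 was called (1.51 ± 0.46, adjusted p = 0.034, against 0.822% of genes) from 23 and 24 UMIs in sh-NC and 4 and 16 in sh-B7-H3 (1). This call was lost without sh-NC replicate 1 (1.34), sh-NC replicate 2 (1.63) or sh-B7-H3 (1) replicate 2 (0.34). It was also lost with the replicate number as a block (1.41). Havcr2 and Tigit had at most 4 UMIs in any library there and were not tested. Within Nkg7-positive CD4 cells, the co-detection ratio of Pdcd1 and Lag3 was 1.35 and 1.23 in sh-NC and 1.30 and 1.07 in sh-B7-H3 (1). At least 2 receptors were detected in 29.7% and 26.3% of them against 27.9% and 22.9%, and these overlapped.

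In CD8 cells the same limit of 2 Nkg7 UMIs took in most of the class, 86.9% and 90.2% of cells in sh-NC and 95% and 95.1% in sh-B7-H3 (1). The 5 receptors called in the class were called in these cells too (log2 fold changes of 1.81 to 2.69, against 10.6% of genes called). A higher limit, 20 Nkg7 UMIs, was chosen after these values were seen. It took in 8.87% and 11.7% of CD8 cells in sh-NC and 51.5% and 46.7% in sh-B7-H3 (1). No receptor was called in these cells by edgeR's quasi-likelihood test, against 1.56% of genes. Cd160, Havcr2 and Lag3 passed the adjusted p alone, as 7.73% of genes did. Of these, Lag3 (0.23) and Havcr2 (0.55) were higher in sh-B7-H3 (1). Cd160 ran from -0.32 to 0.37 over the 8 alternatives in Nkg7-positive CD8 cells, so its pass is not read as a rise. Pdcd1 stood at 357.4 and 349.7 CPM against 320.7 and 340.3 CPM (-0.042 ± 0.054, adjusted p = 0.753). Havcr2 stood at 63.1 and 58.4 CPM against 82.1 and 88.3 CPM (0.55 ± 0.11, adjusted p = 0.000168).

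With a UMI of Cxcr6, a chemokine receptor of tissue T cells, in place of Nkg7, also chosen after the values were seen, CD4 cells gave log2 fold changes of 0.21 for Pdcd1 and 0.46 for Lag3, neither called against 3.08% of genes. CD8 cells with Cxcr6, 54.8% and 57.7% of the class in sh-NC and 82.4% and 79.8% in sh-B7-H3 (1), still gave 1.69 for Pdcd1 and 2.03 for Lag3, both called against 10.9% of genes. How far the receptor changes are held within a subset of CD8 cells thus depended on the gene and limit that defined it. In CD8 cells Nkg7 itself rose by 1.47 on the log2 scale. With a limit of 1 Nkg7 UMI, CD4 cells gave 0.27 for Pdcd1 and 0.49 for Lag3, both under the fold limit. At 2 UMIs these were -0.16 and 0.05, so in CD4 cells too the size depended on the definition. Over 8 alternatives there Lag3 gave -0.13 to 0.49 and was called in 0. Its lowest adjusted p was 1.12e-06 (edgeR's quasi-likelihood test), so it passed the adjusted p alone in at least 1 of them. In CD8 cells too, the difference between the change in the class and in the subset was not tested.

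**Figure D4:**
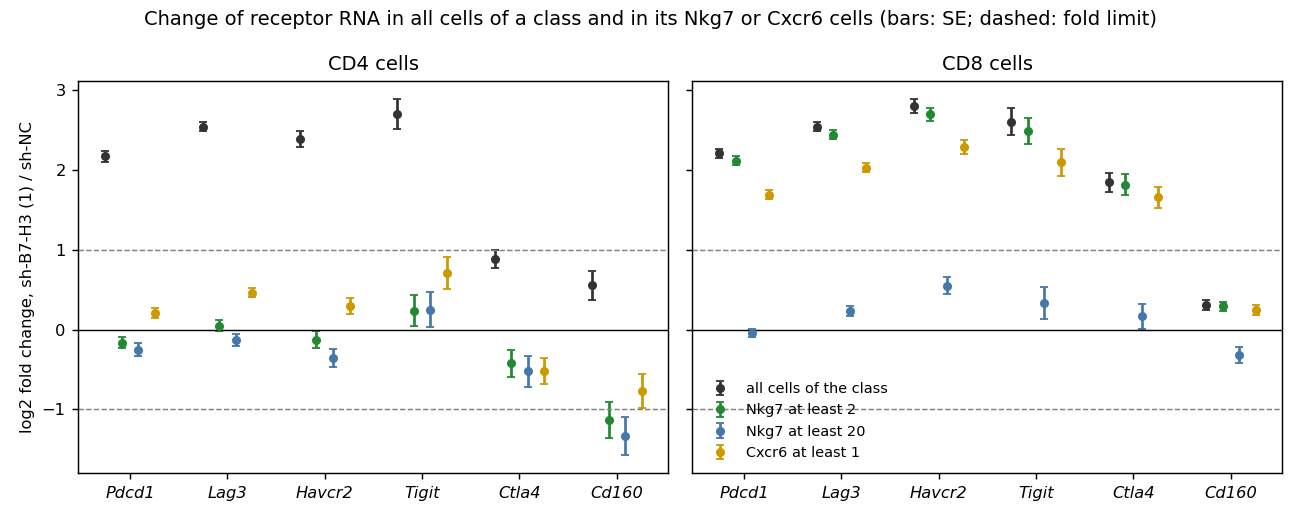
Log2 fold change of each receptor (vertical axis, sh-B7-H3 (1) over sh-NC) in CD4 cells (left) and CD8 cells (right), for all cells of the class (black), cells with at least 2 Nkg7 UMIs (green), with at least 20 (blue) and with a Cxcr6 UMI (yellow). Bars are standard errors and dashed lines the fold limit. Lag3 in CD4 cells went from 2.54 in all cells to 0.05 in Nkg7-positive cells, and in CD8 cells from 2.54 to 2.44 at the limit of 2 and to 0.23 at the limit of 20.

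Surface tags were counted for 5 of the 6 receptors, and LAG-3 protein was not analysed here. The PD-1 tag stood at 3050 and 3358 tag CPM in CD4 cells of sh-NC and at 7365 and 7889 in sh-B7-H3 (1), a log2 fold change of 0.97 ± 0.08 in the test over 197 tags (adjusted p = 0.00263). In CD8 cells it stood at 2607 and 2908 against 7064 and 7066 (0.95 ± 0.08, adjusted p = 0.00166). The test rescales the libraries to each other over all tags (TMM), so these changes are smaller than those of the plain tag CPM. After that rescaling both lay just under the fold limit. In CD4 and CD8 cells 6.09% and 7.11% of tags were called, while 54.3% and 66.5% passed the adjusted p alone. Without sh-NC replicate 2 PD-1 passed the fold limit in both classes (1.04 and 1.05), as it did in CD4 cells without sh-B7-H3 (1) replicate 1 (1.01). In Foxp3 cells the PD-1 tag differed by 0.24 ± 0.09 (adjusted p = 0.086), and 2.03% of tags were called.

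PD-1 protein went with its RNA cell by cell. CD4 cells with a Pdcd1 UMI carried a mean of 65.4 and 56.9 PD-1 tag UMIs in sh-NC, and those without carried 8.76 and 7.82. In sh-B7-H3 (1) they carried 55.2 and 43.4 against 19.0 and 11.3. As a share of each cell's tags, the ratio was 3.96 and 4.28 in sh-NC and 2.01 and 2.39 in sh-B7-H3 (1). In CD8 cells it was 5.36 and 5.58 against 1.85 and 1.98. For TIM-3 it was 0.81 to 1.36 in CD4 and 1.13 to 1.25 in CD8 cells, and for CD152 and CD160 it was 0.81 to 1.01 in both classes. In these classes the CD152 and CD160 tags thus lay near the same level or lower in cells with their RNA. The TIM-3 tag lay somewhat higher with its RNA in CD8 cells. In Foxp3 cells the TIM-3 ratio was 1.48 and 2.01 in sh-NC and 1.26 and 1.28 in sh-B7-H3 (1). There CD152 gave 1.27 and 1.17 against 1.02 and 1.08, and CD160 1.03 and 1.01 against 0.89 and 0.91.

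As shares of all tag UMIs (tag CPM), tags of TIM-3, CD152 and CD160 were higher in droplets without a cell than in cells. The isotype controls shared this, at 9074 to 10565 tag CPM in empty droplets. Such shares are no amounts per droplet. In sh-NC replicate 1, 983212 CD160 tag UMIs lay in 1568814 empty droplets, whereas a CD4 cell held a mean of 23.3. The PD-1 tag stood at 3555 and 3604 tag CPM in empty droplets of sh-NC, above CD4 and CD8 cells of that group, and at 4988 and 4881 in those of sh-B7-H3 (1), below the cells. Its ratio to the isotype controls was 1.01 and 1.16 in CD4 cells of sh-NC and 1.97 and 2.00 in sh-B7-H3 (1), and 0.99 and 1.14 against 2.00 and 1.86 in CD8 cells. The CD160 tag stood at 15526 to 16386 tag CPM in empty droplets and at 4197 to 5902 in cells of the 3 classes, and TIM-3 at 1264 to 1678 against 369.1 to 904.9. TIM-3 stood at 448.1 and 433.8 against 904.9 and 850.6 in CD4 cells (log2 fold change 0.72 ± 0.05, adjusted p = 0.00182). The CD160 tag differed by -0.02 in both CD4 and CD8 cells in the scaled test. Isotype controls, antibodies with no intended target, were at 2890 and 3034 tag CPM in sh-NC and 3736 and 3940 in sh-B7-H3 (1) in CD4 cells. Their part in the tag differences was not tested beyond a fit scaled by them, in which PD-1 gave 0.87 and 0.86 in CD4 and CD8 cells.

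The TIGIT tag rested on single cells. In CD4 cells it counted 395, 370, 89104 and 475 UMIs in sh-NC replicates 1 and 2 and sh-B7-H3 (1) replicates 1 and 2, and 88536 of the 89104 were in 2 cells, with 74103 and 14433. In CD8 cells of sh-NC replicate 2, 1 cell held 5362 of 6042. Without cells of 100 or more TIGIT tag UMIs, a limit chosen after these values were seen, the tag rose by 1.29 ± 0.15 in CD4 (adjusted p = 0.00474) and 1.00 ± 0.10 in CD8 cells (adjusted p = 0.00314) on the log2 scale. Most cells held no TIGIT tag at all. The tag stood at 129.5 and 135.8 tag CPM in empty droplets of sh-NC and 258.1 and 189.9 in those of sh-B7-H3 (1). Libraries without such single cells lay below that, at 49.6 and 61.1 against 157.0 tag CPM in CD4 cells and 44.1 against 129.9 and 120.9 in CD8 cells, and at 0.016 to 0.040 of their isotype controls. As a share of tag UMIs, the tag thus lay lower in cells than in empty droplets, where it was itself higher in sh-B7-H3 (1). That share is no amount per droplet and sets no floor for cells. CD4 cells with a Tigit UMI carried a mean of 0.90, 0.83 and 0.74 TIGIT tag UMIs in sh-NC replicates 1 and 2 and sh-B7-H3 (1) replicate 2. Those without carried 0.22, 0.25 and 0.51. The part of free tag in the rise was not tested.

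**Figure D5:**
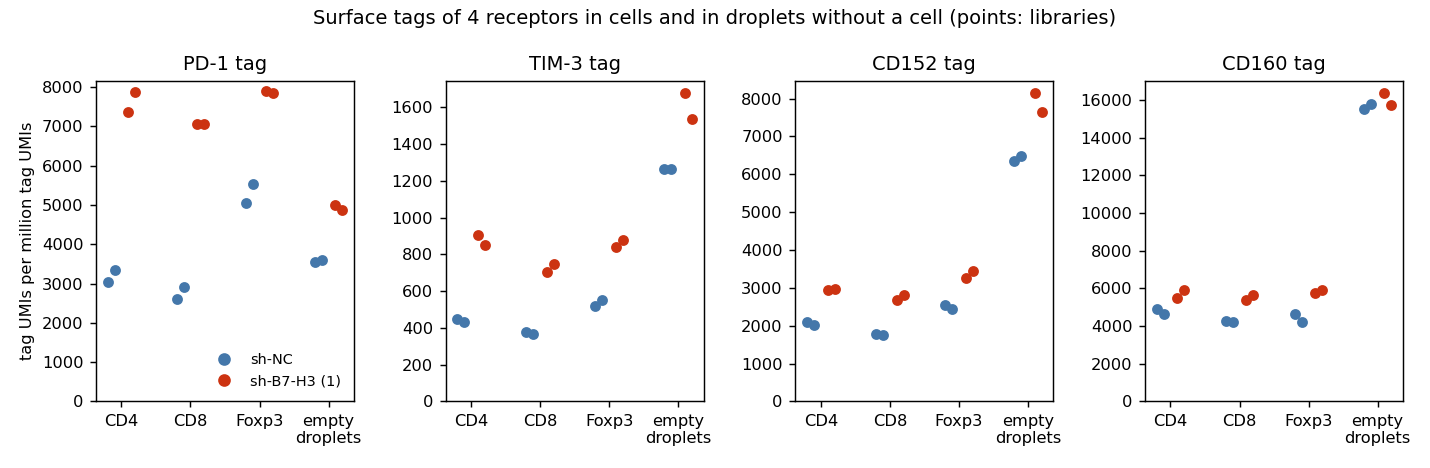
Surface tags of PD-1, TIM-3, CD152 and CD160 in tag CPM (vertical axis, from 0) in CD4, CD8 and Foxp3 cells and in droplets without a cell. Points are libraries, sh-NC in blue and sh-B7-H3 (1) in red. Tag CPM is a share of tag UMIs and no amount per droplet. By that share, PD-1 in CD4 and CD8 cells lay above the empty droplets in sh-B7-H3 (1) and below them in sh-NC. TIM-3, CD152 and CD160 lay below them in every class.

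Free RNA and other cells were measured beside the receptors. In droplets without a cell Pdcd1 stood at 31.5 and 30.8 CPM in sh-NC and 95.6 and 103.3 CPM in sh-B7-H3 (1), and Lag3 at 25.9 and 24.2 against 88.1 and 94.7 CPM. Taking away free RNA at 5% of each sum left log2 fold changes of 2.17 and 2.54 for Pdcd1 and Lag3 in CD4 cells and 2.22 and 2.56 in CD8 cells. The 8 macrophage markers summed to 166.2 to 266.9 CPM in CD4 cells of sh-NC and 303.9 to 305.2 in sh-B7-H3 (1), to 117.4 to 147.8 against 335.4 to 426.8 in CD8 cells, and to 104.0 to 514.0 against 481.1 to 773.7 in Foxp3 cells, and all 8 were detected in CD8 cells of every library. Without cells that held at least 5 macrophage or 2 B cell marker UMIs, Havcr2, a gene macrophages also express, gave 2.38 in CD4 and 2.81 in CD8 cells. Effector markers (Nkg7, Ccl5, Gzmk, Gzmb and Ifng) summed in CD4 cells to 1844 to 2490 CPM in sh-NC against 11332 to 12263 in sh-B7-H3 (1), in CD8 cells to 2676 to 3282 against 14340 to 15193, and in Foxp3 cells to 864.7 to 902.8 against 3227 to 3747. T cell markers (Cd3d, Cd3e, Cd3g, Trac and Trbc2) summed to 5534 to 5561 against 7052 to 7404 CPM in CD4 cells, 5132 to 5236 against 6517 to 6891 in CD8 cells and 5353 to 5462 against 5801 to 5926 in Foxp3 cells. The CD4 lineage genes Cd4 and Zbtb7b summed to 275.9 to 282.2 against 508.1 to 527.9 CPM in CD4 cells, to 2.08 to 2.25 against 2.56 to 2.64 in CD8 cells and to 132.3 to 155.7 against 164.7 to 183.3 in Foxp3 cells. The CD8 lineage genes Cd8a, Cd8b1 and Runx3 summed to 69.2 to 81.03 against 276.5 to 285.7 CPM in CD4 cells, where the rule leaves Runx3 alone, to 1884 to 1893 against 2044 to 2139 in CD8 cells and to 249.3 to 252.6 against 412.5 to 462.3 in Foxp3 cells. Regulatory markers (Foxp3, Il2ra and Ikzf2) summed to 45.1 to 57.5 against 190.7 to 194.7 CPM in CD4 cells, which hold no Foxp3 UMI by rule, to 22.3 to 24.7 against 94.03 to 96.7 in CD8 cells, and to 1248 to 1370 against 1437 to 1510 in Foxp3 cells. In CD4 cells 4 genes of natural killer cells (Ncr1, Klrb1c, Klre1 and Klra8) summed to 4.96 to 5.22 against 42.5 to 44.0 CPM, and in sh-B7-H3 (1) this sum was Klre1 alone. Ncr1 and Klra8 were at 0 in CD4 cells of every library, and Klrb1c, detected in both sh-NC libraries, was at 0 in both of sh-B7-H3 (1). In the same cells 2 genes of gamma-delta T cells summed to 9.14 to 13.5 against 36.8 to 40.5, 4 B cell genes to 1.59 to 5.83 against 1.59 to 2.93, and 5 genes of tumor or stroma to at most 1.59. In CD8 cells the natural killer genes summed to 5.78 to 7.45 against 44.8 to 50.1 CPM, with Klrb1c and Klre1 the only 2 detected in sh-B7-H3 (1), Ncr1 at 0 in every library and Klra8 detected in sh-NC replicate 2 alone. The gamma-delta genes summed to 10.4 to 14.2 against 43.6 to 50.5 in CD8 cells. In Foxp3 cells the natural killer genes summed to 0.783 to 4.92 against 5.87 to 7.12, with Ncr1 and Klra8 at 0 in every library, and the gamma-delta genes to 8.93 to 11.5 against 24.6 to 32.5. The B cell genes summed to 16.2 to 18.96 against 8.33 to 11.2 CPM in CD8 cells and 18.2 to 18.3 against 17.2 to 28.5 in Foxp3 cells, and those of tumor or stroma to at most 3.91 in any class. The part of each list in the receptor changes was not tested, beyond the removal of macrophage and B cell marker cells.

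Genes around the receptors were counted by lists. The median log2 change of each list is given beside that of all genes, -0.0012 in CD4 and 0.0049 in CD8 cells, and its counts stand beside the 8.27%, 8.1% and 1.1% of all genes called higher in CD4, CD8 and Foxp3 cells, or 11.2%, 10.4% and 1.31% in either direction. Of 14 other inhibitory receptors 12 were tested in CD4 and CD8 cells, and 5 and 7 rose, against 8.27% and 8.1% of genes, with none called lower (medians 0.90 and 1.53). They included Cd244a, the gene of 2B4, at 3.17 ± 0.13 in CD4 and 2.56 ± 0.11 in CD8 cells, and Klrc1, the gene of NKG2A, at 2.64 ± 0.23 and 2.15 ± 0.09. Pvrig, a receptor for nectin-2, rose by 2.45 ± 0.26 and 2.23 ± 0.21. In Foxp3 cells 2 of 11, against 1.1% of genes, were called higher on few UMIs, Cd244a with 0 and 3 in sh-NC against 12 and 21, and Klrc1 with 1 and 3 against 13 and 20. Both passed the low-count filter only through the sh-B7-H3 (1) libraries, where they were high, so no weight rests on this count.

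Of the 13 genes of ligands, 8 were tested in CD4 and CD8 cells and 2 rose in each, against 8.27% and 8.1% of genes (medians 0.07 and 0.36). These were Lgals3, the gene of galectin-3 (1.35 ± 0.09 and 1.60 ± 0.09), and Cd80, a ligand of CTLA-4 and CD28 (2.42 ± 0.44 and 2.22 ± 0.39). Cd80 lay at only 0.251 to 0.63 CPM in sh-NC and passed the low-count filter mainly through sh-B7-H3 (1). No weight rests on its part in this count, which leaves Lgals3 as the rise in each class. Cd274, the gene of PD-L1, named after its values were seen, stood at 12.4 and 12.1 against 11.3 and 12.4 CPM in CD4 cells. In Foxp3 cells Lgals3 was the 1 of 7 that rose (1.21 ± 0.13), against 1.1% of genes.

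Of 12 genes listed under inhibitory signalling, 2 rose in CD4 cells, Ubash3b (1.92 ± 0.09) and Cblb (1.13 ± 0.07). They encode a phosphatase and a ubiquitin ligase that dampen antigen receptor signals. In CD8 cells 2 rose, Ubash3b (1.22 ± 0.07) and Sh2d1a (1.10 ± 0.04), the gene of the adaptor SAP. SAP also serves activating signals, so its rise is no measure of inhibition. The medians of this list were 0.40 and 0.47, and its 2 of 12 in each class stand against 8.27% and 8.1% of genes called higher. In Foxp3 cells Ubash3b gave 0.41 ± 0.12 (adjusted p = 0.0478) and Cblb 0.36 ± 0.12 (adjusted p = 0.0901), both under the fold limit. Of 8 costimulatory receptors only Tnfrsf9, the gene of 4-1BB, was called, in CD4 (1.84 ± 0.09) and CD8 cells (1.99 ± 0.07), a share near the 11.2% and 10.4% of all genes called in either direction (medians 0.04 and 0.30). In Foxp3 cells Tnfrsf9 gave -0.18 ± 0.09 (adjusted p = 0.263). Cd28, also named after its values were seen, at 135.4 and 139.9 against 100.5 and 101.6 CPM in CD4 cells, gave -0.54 and was under the fold limit.

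Of 16 transcription factors with known roles in receptor expression, 9 rose and 1 fell in CD4 cells (median 1.11), against 11.2% of genes called in either direction, and 9 rose and 2 fell in CD8 cells (median 1.39), against 10.4%. Nr4a2, a nuclear receptor induced by antigen signals, rose from 17.1 and 16.8 CPM to 117.6 and 107.6 CPM in CD4 cells (2.62 ± 0.08) and by 2.73 ± 0.10 in CD8 cells. Tox2 rose by 2.16 ± 0.14 and 2.49 ± 0.16. Eomes and Tbx21, T-box factors of effector cells, rose in CD4 cells by 2.50 ± 0.10 and 2.15 ± 0.28, and Prdm1 and Maf in CD8 cells by 2.34 ± 0.13 and 1.86 ± 0.12. In Foxp3 cells 2 of 16 rose, against 1.1% of genes, Eomes (2.35 ± 0.25) and Nr4a2 (2.35 ± 0.30).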

How the data were processed

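T cells of 4 libraries (2 sh-NC, 2 sh-B7-H3 (1)) were measured by CITE-seq, which counts RNA and antibody tags in the same droplets. The authors deposited UMI counts per gene, tag and barcode, made with Cell Ranger on mm10, without normalization. Seurat 4.0.0 is also named in the submitters' processing notes. Depth was 79224898 to 132820909 RNA UMIs per library. The labels gave the groups, and lanes of 1 pool are not separate mice.

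Kept cells had 200 to 3000 genes and at most 5% mitochondrial UMIs, the study's limits, after removal of doublets by a simulated-doublet score at 0.8% per 1000 called cells (7 to 10% of called cells). Of the removed cells 49.0 to 55.2% held UMIs of both lineages, against 2.42 to 4.66% of kept cells. The upper gene limit left out 20.1 to 23.8% of called cells. The 20985 cells kept here are more than the study reports after its limits and doublet removal, so the cell sets are not the same.

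Counts were summed per library and class and tested with edgeR 4.0.16 (R 4.3.3) by quasi-likelihood with TMM scaling and filtering of low counts. The fit was tested on simulated data with known changes. DESeq2 1.42.0 was an alternative, beside other filters, doublet rules, lineage rules, thinning, further thinning draws, leave-outs and the replicate block. Samples with the same replicate number did not deviate together (r of -0.03, -0.05 and -0.08 in CD4, CD8 and Foxp3 cells). Replicate sums differed beyond counting noise (chi-square over degrees of freedom of 1.51 to 1.94). Droplets of at most 100 UMIs gave the free RNA. Named genes were the 6 receptors and, per list, at most 4 called genes of largest change. Members and lists were chosen with earlier results of these data known. One marker list and the cell subset built from it are not reported here.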

Additional observations from a re-analysis of the deposited data

Results flagged for a closer look

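The effect of sh-B7-H3 (1) differed between classes of T cells for 5 of the 6 receptors, by a test of the difference of log2 fold changes with edgeR's quasi-likelihood method and an adjusted p under 0.05 as the call. Sums of different classes from the same library were taken as separate units, so the p-values do not account for that pairing. Of 11803 genes, 7.96% differed between Foxp3 and CD4 cells and 3.24% between CD8 and CD4 cells. In Foxp3 cells the change was smaller than in CD4 cells for Pdcd1 (difference -1.48 ± 0.15, adjusted p = 1.75e-07), Lag3 (-1.29 ± 0.20, adjusted p = 6.66e-05), Havcr2 (-1.57 ± 0.21, adjusted p = 1.20e-05), Tigit (-1.79 ± 0.34, adjusted p = 0.000732) and Ctla4 (-0.79 ± 0.16, adjusted p = 0.00175). The Ctla4 difference was not called without sh-B7-H3 (1) replicate 2 (-0.71, adjusted p = 0.0944). In CD8 cells Ctla4 changed more than in CD4 cells (0.96 ± 0.19, adjusted p = 0.0033), and this call was lost without sh-B7-H3 (1) replicate 1 (adjusted p = 0.0645) or replicate 2 (adjusted p = 0.0696).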

How the results depend on the processing

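With 2 libraries a group, single calls in small strata rest on few UMIs, and shares of cells depend on depth. In CD4 cells Pdcd1, Lag3, Havcr2 and Tigit were called in 14 of 14 alternatives (log2 fold changes of 2.01 to 2.90), and in CD8 cells these and Ctla4 in 15 of 15 (1.63 to 2.86). The cause of each shift below was not tested, and every setting on cells also draws the thinned UMIs anew. Alternatives on the differences between classes, on co-detection, on lineage rules, marker cells and mitochondrial UMIs for shares, on further thinning draws, on Nkg7 at 20 UMIs, on Cxcr6 and on TIGIT tag cells, and the replicate block in strata, were chosen after seeing the data.

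Without a limit on the fold change 4561, 5642 and 683 genes were called in CD4, CD8 and Foxp3 cells, and 3 receptors in Foxp3 cells. In Foxp3 cells 126 genes were called, against 200 without the low-count filter, 26 by DESeq2 and 300 without the upper gene limit, and 0 receptors at 2 or more Foxp3 UMIs. Leaving out 1 library gave 79 to 152 genes and 0 to 3 receptors there.

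In Nkg7-positive CD4 cells 94 genes were called, against 214 at 1 UMI, 58 at 20 UMIs and 281 with Cxcr6, and 1 receptor, against 0 at 1 UMI, 0 with Cxcr6 and 0 to 1 on leaving out a library. In Nkg7-zero CD4 cells leaving out a library gave 47 to 89 genes and 0 to 1 receptors. In CD8 cells with 20 Nkg7 UMIs 149 genes and 0 receptors were called, and Pdcd1 turned to a log2 fold change of -0.042. In Nkg7-zero CD8 cells leaving out a library gave 11 to 31 genes, against 9, and 0 to 1 receptors.

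Receptor tags called on leaving out a library were 0 to 2 in CD4 and in CD8 cells, and 1 in each without TIGIT tag cells. In Foxp3 cells 4 tags were called, against 7 with isotype scaling and 4 to 7 on leaving out a library. The difference between CD8 and CD4 cells was called for 383 genes, against 607 without the upper gene limit and 188 to 253 on leaving out a library, with 0 to 1 receptors. That between Foxp3 and CD4 cells was called for 939 genes, against 2467 and 554 to 608.

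The difference in cells with at least 2 receptors, in percentage points, became 23.9, 15.0 and 4.06 in CD4, CD8 and Foxp3 cells at 2000 UMIs and 39.5, 36.1 and 12.5 unthinned. In CD8 cells it was 7.51 without doublet removal, 7.08 with lineage by tags, 7.27 without macrophage or B cell marker cells, 7.29 with Foxp3 at 0 and 5.58 at 10% mitochondrial UMIs. Over 20 thinning draws of the same cells it averaged 6.91 in CD8 cells (6.13 to 7.80) and 1.59 in Foxp3 cells (0.14 to 3.42). In Foxp3 cells it was 1.29 without doublet removal, 1.33 without the upper gene limit and 0.57 without Cd8 UMIs. Among single receptors the difference in cells with a UMI turned for Cd160 in unthinned CD8 cells (-2.12), for Pdcd1 in Foxp3 cells at 2 Foxp3 UMIs (-0.63) or without Cd8 UMIs (-0.90), and for Havcr2 at 2 Foxp3 UMIs (-1.70). Differences under the spread between libraries also changed sign, for Cd160 in CD4 cells (0.23, and -0.11 without sh-NC replicate 1 and -0.16 without sh-B7-H3 (1) replicate 2), for Ctla4 in Foxp3 cells (0.16, and -2.68 to -0.54 under 6 alternatives) for Cd160 in Foxp3 cells (0.029, and -0.89 to -0.018 under 7) and for Tigit in Foxp3 cells (-0.0042, and up to 3.597 unthinned).

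The difference in the co-detection ratio of Pdcd1 and Lag3 was -8.31 in CD4 cells with doublets by Otsu's threshold and -9.05 with lineage by tags. The shares of cells with each receptor limit this ratio, as described above, so these differences do not measure co-expression alone. In CD8 cells it was -4.94 without doublet removal, -5.65 by Otsu's threshold, -5.44 without the upper gene limit, -5.38 with lineage by tags, -6.32 without macrophage or B cell marker cells and -4.02 with Foxp3 at 0, and over 20 thinning draws it averaged -6.58 (-8.25 to -5.26). In Foxp3 cells, where 1 to 4 cells per library held both in the main setting, it was -0.53 to 0.92 on leaving out a library. It was -1.05, -1.02, 1.63, -0.68 and -0.99 without doublet removal, without the upper gene limit, without marker cells, without Cd8 UMIs and at 10% mitochondrial UMIs. The number of cells with both differed between these settings.

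The replicate numbers did not pair the libraries. With the replicate number as a block 1254, 1244 and 161 genes were called in CD4, CD8 and Foxp3 cells, with 4, 5 and 1 receptors. The block ended the call of Lag3 in Nkg7-zero CD4 cells (1.41, adjusted p = 0.14 by edgeR, 0 receptors called) and gave 14 genes in Nkg7-zero CD8 cells. It changed no other receptor call.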
